A study of Mus musculus with 8 samples.

Results

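This account covers 34 genes that the transcription factor ATF4 is known to switch on, or that act beside it, in mouse embryonic fibroblasts, out of 39017 gene identifiers in the deposited table. The genes were named by function and matched by symbol: 6 transcription factors, 7 stress effectors and feedback regulators, 8 enzymes of amino acid and one-carbon synthesis, 6 amino acid transporters, and 7 genes of tRNA charging and export. All 34 were found, all 34 passed the filter on low counts, and 18952 genes in all were tested. The genes were chosen by function and no measured value or threshold enters the rule, but the list was drawn up with earlier results of these libraries in view, so the p-values below say where each gene stands in the fit and are not independent support. The fibroblasts came from E13.5 embryos. Control cells and cells with a Mettl3 knockout, made by a Cre recombinase that 500 nM 4-hydroxytamoxifen switches on over 48 h, were each sampled as total RNA without stress and as a stress granule-enriched fraction after 500 µM sodium arsenite for 30 min. That gives 4 groups of 2 replicates: control total, control granule, knockout total and knockout granule. METTL3 is the enzyme that writes N6-methyladenosine (m6A) on mRNA, and the labels state that the protein and the mark were gone after 7 days. The labels give neither the promoter that drives Cre nor whether control cells received the drug.

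ATF4 is the main transcription factor of the integrated stress response. When a stress kinase phosphorylates the initiation factor eIF2, most translation slows, while upstream reading frames in the Atf4 mRNA let its own translation go up. ATF4 then pairs with C/EBP-family partners and switches on genes that make, import and charge amino acids, together with regulators that end the response or turn it toward cell death. Arsenite acts on this pathway mainly through the heme-regulated eIF2 kinase, and the mRNAs whose translation stalls gather in stress granules.

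ATF4 binds the C/EBP-ATF response element, whose core was searched as TGATGNAA on both strands in RefSeq promoters of build GRCm38.p6, from 250 bases before to 50 after each gene's start. Of the 34 genes, 28 had an entry. The core was found for 11 of these 28 genes (39.3%, 95% Wilson interval 23.6 to 57.6), against 1219 of all 27025 genes in the table (4.51%, interval 4.27 to 4.76). It was found in 2 of 6 transcription factors, 3 of 6 effectors, 2 of 7 synthesis enzymes, 2 of 5 transporters and 2 of 4 tRNA genes. A match describes the letters and is not a measured binding site. The windows below lie upstream of the annotated start, overlap no GENCODE M21 exon, and are shown because they carry the core that was searched. They read 5′ to 3′ on the gene's strand, with the matched core in capitals (TTGCATCA, TTACATCA and TTTCATCA are matches on the opposite strand).
Chac1, chr2:119351009-119351096, plus strand: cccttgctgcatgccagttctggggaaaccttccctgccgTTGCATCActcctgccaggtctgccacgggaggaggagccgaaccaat
Atf3, chr1:191183396-191183483, minus strand: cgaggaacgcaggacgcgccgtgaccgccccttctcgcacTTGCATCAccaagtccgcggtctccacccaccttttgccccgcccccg
Pck2, chr14:55540123-55540210, plus strand: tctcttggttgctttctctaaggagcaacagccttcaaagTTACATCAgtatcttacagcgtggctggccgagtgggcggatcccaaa
Slc7a11, chr3:50443632-50443719, minus strand: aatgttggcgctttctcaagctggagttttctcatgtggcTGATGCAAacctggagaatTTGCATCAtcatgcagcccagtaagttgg
Gars, chr6:55037931-55038000, plus strand: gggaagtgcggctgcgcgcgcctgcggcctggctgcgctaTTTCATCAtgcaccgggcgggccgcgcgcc
The match began 193 bases before the start in Chac1, 110 in Atf3, 103 in Pck2 and 30 in Gars. Slc7a11, which encodes the cystine importer xCT, had a pair of matches, at 66 and 47 bases, on opposite strands. Aars, Asns, Nupr1, Slc1a4, Trib3 and Vldlr also held a match. The other 17 genes with an entry held no match. Among them were Atf4, Atf5, Cebpg, Ddit3, Ddit4, Sesn2 and Stc2. The rest were Mthfd2, Phgdh, Psat1, Psph, Shmt2, Slc3a2, Slc6a9, Slc7a1, Sars and Xpot.

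Library totals ran from 67257220 to 123508539 counts, and the lowest count of any of the 34 genes in any library was 577 (Vldlr). Mettl3 (ENSMUSG00000022160) stood at 25.4 and 24.9 CPM (counts scaled to a common library size) in control total, 15.7 and 15.4 in control granule, 6.68 ± 0.953 CPM (SD, n = 2) in knockout total, and 5.97 ± 0.579 CPM (SD, n = 2) in knockout granule libraries. The 4 knockout libraries were thus all lower than the 4 control libraries. All 10 fibroblast markers examined reached 1 CPM in at least 1 library and summed to between 3519 and 7597 CPM in a library. Endothelial, macrophage, muscle, neural and erythroid lists summed to at most 55.2 CPM. The epithelial list summed to between 74.2 and 744 CPM, most of it Krt18. It was higher in granule than in total libraries, and its part in the results below was not tested. In bulk RNA, fewer cells of a type and less RNA per cell cannot be told apart.

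Replicates of the granule groups were close for these genes, with no gene differing by more than 2-fold. In control total 2 of 34 genes did so, and in knockout total 10 of 34. Over a wider set of 10212 genes the shares were 2.33% in control total and 40.1% in knockout total. The knockout total replicates were split by GC content: across the 34 genes their log2 ratio followed the GC content of the transcript (Spearman rho 0.682, a description across genes of 1 pair of libraries). Over the 10212 genes the control total replicates were split by GC content too, in the opposite direction (Spearman rho -0.764, against 0.734 in knockout total). The median size of the log2 ratio there was 0.312 in control total and 0.813 in knockout total. Trib3 stood at 116 CPM in knockout total replicate 1 and 438 in replicate 2, whereas the GC-poor Slc7a11 stood at 119 and 36.8. Mitochondrial transcripts took 7.60% of counts in knockout total replicate 1, 6.16% and 8.81% in the knockout granule libraries, and between 0.590% and 0.881% in the other 5. These values do not say which knockout total replicate is the unusual one. Results that use this group are therefore also given with replicate 1 or replicate 2 left out.

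**Figure D1:**
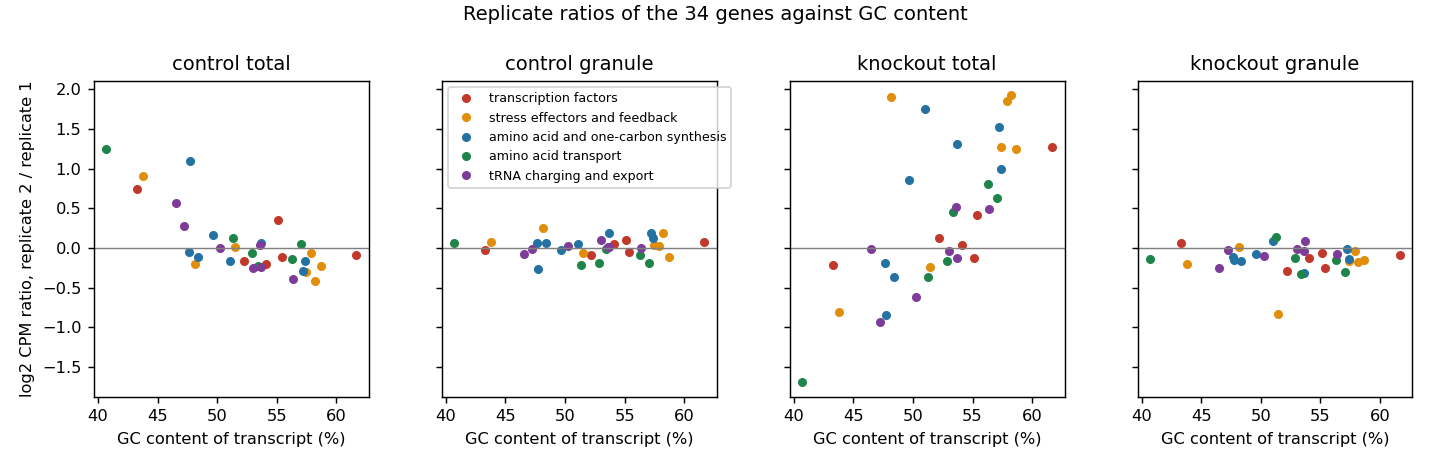
Each point is 1 of the 34 genes; the x axis is the GC content of its longest protein-coding transcript (%) and the y axis the log2 ratio of CPM in replicate 2 over replicate 1, with 1 panel per group. The granule panels are flat near 0, and the knockout total panel climbs with GC content (Spearman rho 0.682). In the control total panel the GC-poor Slc7a11 (1.24) and Aldh1l2 (1.10) have the highest ratios.

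Per kilobase of transcript, the genes spanned a wide range of levels in unstressed control cells. Shmt2, the mitochondrial serine hydroxymethyltransferase, had the highest level at 743 CPM per kb, followed by Ddit3 (CHOP, a transcription factor tied to stress-induced death) at 614, Atf4 at 538 and Phgdh, the first enzyme of serine synthesis, at 484. Slc7a11 and Vldlr, a lipoprotein receptor, had the lowest levels, at 3.43 and 6.72 CPM per kb. In the knockout total group Shmt2 (669 CPM per kb) and Atf4 (621) had the highest levels, with the replicates of Shmt2 differing by 2-fold in CPM (1021 and 2040). In control granules the order changed: Atf4 was highest at 312 CPM per kb, ahead of Phgdh at 213, while Ddit3 was at 102.

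Summed over the 34 genes, the level was 18327 and 16943 CPM in control total, 14222 and 17232 in knockout total, 6307 and 6446 in control granule, and 5672 and 5282 in knockout granule libraries. Every granule library was thus far below every total library.

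**Figure D2:**
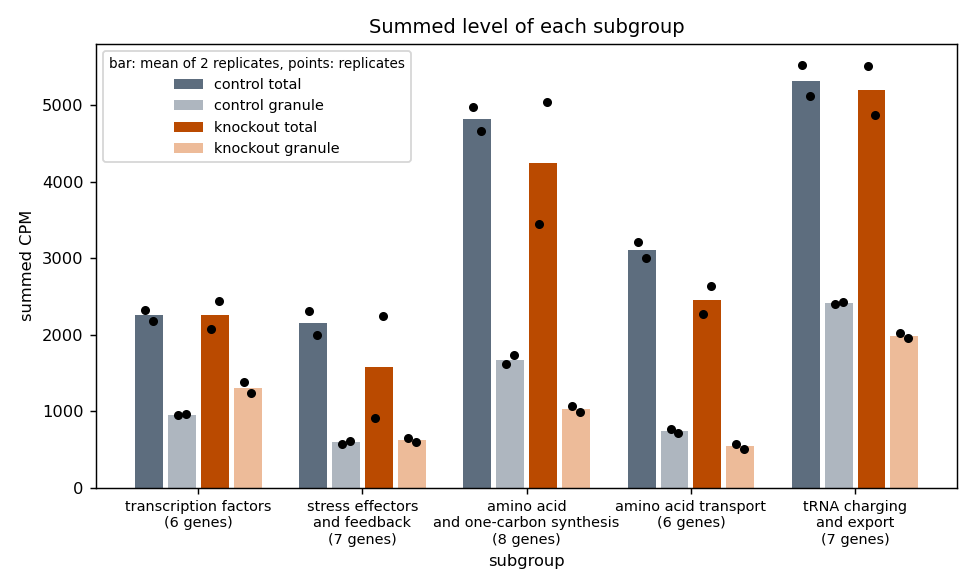
Bars give the mean summed CPM of each subgroup (y axis) in the 4 groups, and points the 2 replicates. In all 5 subgroups both granule groups sit below both total replicates of the same genotype, for example 944 and 964 CPM against 2327 and 2172 for the transcription factors in control cells.

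The first question was how these mRNAs were distributed between granule and total libraries of control cells. All 34 genes had lower CPM in both granule libraries than in both total libraries, whereas 37.3% of all genes tested did. By edgeR's quasi-likelihood test 23 of the 34 were called lower and 0 higher (adjusted p under 0.05, Benjamini-Hochberg over all genes tested), against 4.17% of all genes called lower and 5.89% called higher (10.1% called in all). The median log2 fold change was -1.68 over the 34 genes and -0.06 over all genes tested. Granule libraries come from arsenite-treated cells and total libraries from unstressed cells, so fraction and stress cannot be told apart.

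The effectors and feedback regulators (median log2 fold change -2.46, 5 of 7 called) and the transporters (-2.23, 5 of 6 called) had the lowest medians. The synthesis enzymes followed at -1.88 (6 of 8 called), then the transcription factors at -1.19 (3 of 6 called) and the tRNA genes at -1.09 (4 of 7 called). These medians were not tested against each other. Over the 4 pairings of single libraries the median of each subgroup varied by an SD of 0.034 to 0.146.

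Among the regulators, Trib3, a pseudokinase that binds and restrains ATF4, stood at 529 and 397 CPM in control total and 22.3 and 25.5 CPM in control granule libraries. The groups are far apart, and the log2 fold change was -4.28 (SE 0.60, edgeR adjusted p = 0.0105), the largest fall of the 34 genes. Vldlr stood at 37.4 and 69.8 CPM in total and at 5.60 and 5.91 in granule libraries, a log2 fold change of -3.22 (SE 0.42, edgeR adjusted p = 0.0086). Chac1, an enzyme that degrades glutathione, stood at 292 and 235 CPM in total against 36.2 and 37.3 in granule libraries (log2 fold change -2.84, SE 0.42, edgeR adjusted p = 0.0113). Stc2, a secreted glycoprotein of the stress response, stood at 118 and 118 against 21.9 and 21.1 CPM (log2 fold change -2.46, SE 0.33, edgeR adjusted p = 0.00898). Sesn2, a stress-induced inhibitor of mTORC1, also fell (log2 fold change -1.55, edgeR adjusted p = 0.0465). Ddit4, another mTORC1 inhibitor, was the gene nearest to no difference, with 278 and 267 CPM in total and 223 and 227 in granule libraries (log2 fold change -0.28, edgeR adjusted p = 0.745).

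Atf4 itself stood at 991 and 865 CPM in control total and 528 and 548 CPM in control granule libraries. The granule values lay below both total values, but the log2 fold change of -0.79 (SE 0.24, edgeR adjusted p = 0.0707) missed the threshold. The DESeq2 Wald test, which called 28 of the 34 genes with 21.5% of all genes called, did call Atf4 lower. Its target Ddit3 differed more, with 568 and 525 CPM in total and 92.5 and 89.2 in granule libraries (log2 fold change -2.59, SE 0.27, edgeR adjusted p = 0.00475). Nupr1, a small stress-induced chromatin protein, and Atf3 also fell, by 2.06 (edgeR adjusted p = 0.00695) and 1.24 (edgeR adjusted p = 0.0231) on the log2 scale. Atf5 and Cebpg, a dimer partner of ATF4, had log2 fold changes of -1.13 and -0.75 and were not called.

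The transporters were led by Slc6a9, a glycine importer, at 117 and 122 CPM in total and 11.8 and 10.3 in granule libraries (log2 fold change -3.44, SE 0.32, edgeR adjusted p = 0.00386). Exons of other genes cover 30.2% of its exonic bases and whether the counting used strand is not given in the sources used here, so its count is uncertain. Slc1a4, a transporter of small neutral amino acids, stood at 170 and 163 against 31.9 and 28.0 CPM (log2 fold change -2.48, SE 0.25, edgeR adjusted p = 0.00464). Slc7a5 and Slc3a2, the subunits of the large neutral amino acid exchanger LAT1, fell by similar amounts, 2.12 and 2.24 on the log2 scale. Slc7a1, an importer of cationic amino acids, fell by 1.42. Slc7a11 was not called (log2 fold change -2.22, SE 0.59, edgeR adjusted p = 0.0524), with 18.8 and 44.4 CPM in total and 6.64 and 6.91 in granule libraries.

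Of the synthesis enzymes, Pck2, the mitochondrial phosphoenolpyruvate carboxykinase, stood at 339 and 303 CPM in total and 59.6 and 61.8 in granule libraries (log2 fold change -2.40, SE 0.51, edgeR adjusted p = 0.0284). Psph, Aldh1l2, Shmt2, Asns and Mthfd2 were also called, with log2 fold changes from -2.23 to -1.48. Phgdh (-1.18) and Psat1 (-0.65), which carry the first steps of serine synthesis, were not. Asns is the asparagine synthetase, and it stood at 411 and 396 CPM in total against 119 and 125 in granule libraries. In the tRNA group Sars, Wars, Gars and Aars, which load serine, tryptophan, glycine and alanine, fell by 1.64, 1.46, 1.28 and 1.09 on the log2 scale. Cars, Xpot, the tRNA exporter, and Nars had log2 fold changes of -0.83, -0.77 and -0.67 and were not called. Other genes' exons cover 15.1% of the exonic bases of Aars, 14.1% of Aldh1l2, 10.9% of Ddit3 and 10.4% of Psph.

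The count of called genes rests on the spread that the 4 groups share. It was 33 of 34 in a fit of only the 4 control libraries (42.4% of all genes then called in either direction), and 0 of 34 without either control granule library or without control total replicate 2, fits in which 0 of all genes were called.

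**Figure D3:**
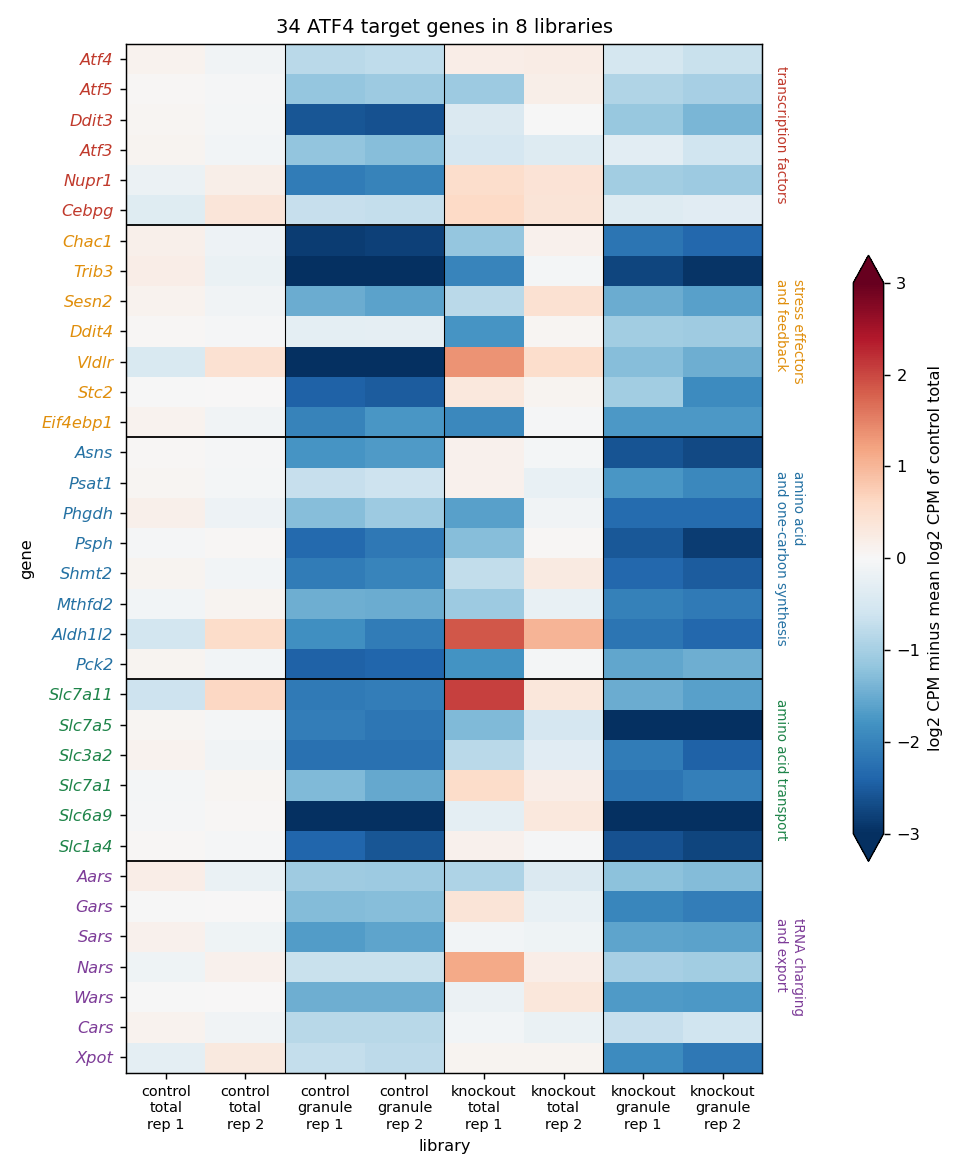
Rows are the 34 genes by subgroup and columns the 8 libraries; colour gives log2 CPM minus the mean log2 CPM of the control total libraries, cut at 3 in both directions. The granule columns of both genotypes are blue for nearly every gene, and knockout total replicate 1 differs from replicate 2 in both directions, as for Trib3 (116 against 438 CPM) and Slc7a11 (119 against 36.8 CPM).

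The same comparison was then made in knockout cells, which share no library with the controls. By edgeR, 25 of the 34 genes were called lower and 0 higher, against 8.47% of all genes called lower and 9.17% higher (17.6% in all). The median log2 fold change was -1.73, with 0.04 over all genes tested. Both granule libraries lay below both total libraries for 29 of the 34 genes, against 26.5% of all genes. The exceptions, Atf3, Atf5, Ddit4, Eif4ebp1 and Pck2, overlapped. Of the 34, 20 were called lower in both genotypes and 6 in neither (Atf4, Atf5, Cebpg, Ddit4, Eif4ebp1 and Cars). Without knockout total replicate 1 the count was 32 (with 6802 of 19981 genes called in all) and the median -1.88, and without knockout granule replicate 1 or 2 it was 4 (1.47% and 1.22% of all genes). With only the 4 knockout libraries fitted the count was 0 of 34, and 0 of all genes were called.

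In knockout cells the transporters had the lowest median, -2.61 (6 of 6 called), followed by the synthesis enzymes at -2.01 (7 of 8), the tRNA genes at -1.76 (5 of 7), the effectors at -1.61 (5 of 7) and the transcription factors at -0.83 (2 of 6). The effectors thus had the lowest median in control cells, while 3 other subgroups stood below them in knockout cells. That order rests on the knockout total libraries. Without replicate 1 the effectors stood at -1.91 and the tRNA genes at -1.48, and without replicate 2 the effectors stood at -0.98 and the tRNA genes at -1.67. Over the 4 pairings of libraries the effectors' median had an SD of 0.615 (-2.01 to -0.77). Across the 34 genes the log2 fold changes of the genotypes had a Pearson r of 0.486, a description across genes that share the libraries of each group.

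Aldh1l2, a mitochondrial folate enzyme, had the largest fall, from 548 and 305 CPM in knockout total to 32.6 and 29.2 CPM in knockout granule libraries (log2 fold change -3.79, SE 0.46, edgeR adjusted p = 0.00376). Slc6a9 stood at 97.1 and 150 against 10.9 ± 1.62 CPM (SD, n = 2, log2 fold change -3.51, SE 0.32, edgeR adjusted p = 0.00213). Slc7a11 stood at 119 and 36.8 against 10.3 and 9.41 CPM (log2 fold change -2.98, SE 0.61, edgeR adjusted p = 0.0174). For all 3 the groups stay apart even though the total replicates of Slc7a11 differ by more than 3-fold.

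Slc1a4 stood at 181 and 162 CPM in knockout total and at 27.2 and 24.8 in knockout granule libraries (log2 fold change -2.72, SE 0.25, edgeR adjusted p = 0.00213). Asns stood at 444 and 389 against 67.2 and 61.8 CPM (log2 fold change -2.69, SE 0.24, edgeR adjusted p = 0.00213), and Slc7a1 at 779 and 606 against 116 and 128 CPM (log2 fold change -2.50, SE 0.27, edgeR adjusted p = 0.00305). The log2 replicate ratio of these 3 that was largest in size in any group was -0.363, for Slc7a1 in knockout total. Vldlr fell by 2.36 (SE 0.40, edgeR adjusted p = 0.00945), from 130 and 74.0 to 21.2 and 18.4 CPM, and Shmt2 by 2.29 (SE 0.36, edgeR adjusted p = 0.00729), from 1021 and 2040 to 329 and 299 CPM. Atf4 stood at 1058 and 1082 against 640 and 585 CPM, a log2 fold change of -0.80 (SE 0.24, edgeR adjusted p = 0.0517), nearly the value in control cells. Atf3 was level between fractions, with 181 and 197 CPM in total and 207 and 170 in granule libraries (log2 fold change 0.00 after rounding, SE 0.24, edgeR adjusted p = 1).

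**Figure D4:**
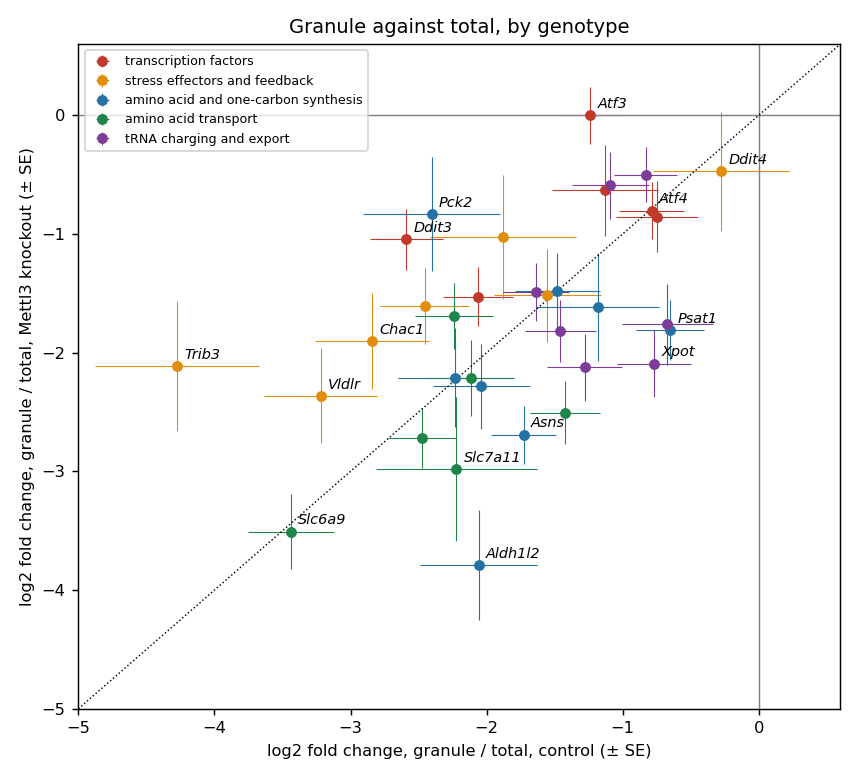
Each point is 1 gene, with the log2 fold change of granule over total in control cells on the x axis and in Mettl3-knockout cells on the y axis; bars are ± SE and the dotted line marks equal values. All points lie at or below 0 on both axes; Trib3, Ddit3, Atf3 and Pck2 lie above the line, and Aldh1l2, Xpot, Psat1 and Asns below it.

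Loss of METTL3 was next examined in total RNA, where by edgeR 0 of the 34 genes were called, against 0.412% of all genes. At an unadjusted p under 0.05 there were 4 (24.8% of all genes), and the DESeq2 Wald test called 1, Aldh1l2, with 13.2% of all genes called. Both knockout libraries were above both control libraries for 8 of the 34 genes (24.4% of all genes) and below them for 5 (24.7%). The median log2 fold change was -0.08, with 0.02 over all genes. The largest differences were those of Aldh1l2 at 102 and 219 CPM in control and 548 and 305 in knockout libraries (log2 fold change 1.41, SE 0.42, edgeR adjusted p = 0.145), Slc7a11 at 18.8 and 44.4 against 119 and 36.8 CPM (1.30, SE 0.57, edgeR adjusted p = 0.206), and Vldlr at 37.4 and 69.8 against 130 and 74.0 CPM (0.93, SE 0.39, edgeR adjusted p = 0.19). The genotypes overlapped for Slc7a11 and did not for Aldh1l2 and Vldlr. All 3 have transcripts of under 48% GC, and in all 3 knockout total replicate 1 was the highest library. Atf4 stood at 991 and 865 CPM in control and 1058 and 1082 CPM in knockout libraries (log2 fold change 0.20, SE 0.24, edgeR adjusted p = 0.594). Without knockout total replicate 2, replicate 1 alone stood for the group. The log2 fold changes were then 1.88 for Aldh1l2, 2.02 for Slc7a11 and 1.38 for Vldlr, and -1.89 for Trib3 and -1.83 for Eif4ebp1. How many genes were called depended on which knockout total replicate was left out, among the 34 and among all genes.

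In the granule fraction, where replicates were tight, the knockout and control libraries did not overlap for 30 of the 34 genes, 14 higher and 16 lower in knockout cells. That share is near the background, since 77.0% of all genes did not overlap (40.4% higher, 36.6% lower). By edgeR 6 genes were called, 3 higher and 3 lower, against 9.45% of all genes (5.79% higher, 3.66% lower). The median log2 fold change was -0.02 over the 34 genes and 0.08 over all genes tested, but the subgroups stood on different sides of 0. Positive values were found for 53.4% of all genes and negative ones for 46.5%. All 6 transcription factors had positive values (median 0.56), as did 5 of 7 effectors (median 0.55). Negative values were found for 7 of 8 synthesis enzymes (median -0.53), 5 of 6 transporters (median -0.11) and 5 of 7 tRNA genes (median -0.25). The SD of these medians over the 4 pairings of libraries was 0.073, 0.096, 0.097, 0.156 and 0.023 in the same order. For the transporters the SD exceeded the size of the median and the pairings ran from -0.318 to 0.055, so their side of 0 was not settled.

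The genes called higher were the lipoprotein receptor Vldlr and Ddit3 and Nupr1 of the transcription factor group. Vldlr stood at 5.60 and 5.91 CPM in control granule and 21.2 and 18.4 CPM in knockout granule libraries (log2 fold change 1.78, SE 0.39, edgeR adjusted p = 0.0337). Ddit3 stood at 92.5 and 89.2 against 250 and 210 CPM (log2 fold change 1.34, SE 0.26, edgeR adjusted p = 0.0216). Nupr1 stood at 30.7 and 32.9 against 64.4 and 61.7 CPM (log2 fold change 0.99, SE 0.25, edgeR adjusted p = 0.0453). In all 3 the gap between the groups was wider than the gap between replicates. Trib3 (1.42), Stc2 (1.05), Atf3 (0.79) and Chac1 (0.56) had positive values and no overlap but were not called. Atf4 stood at 528 and 548 against 640 and 585 CPM (log2 fold change 0.19, SE 0.24, edgeR adjusted p = 0.646).

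The genes called lower make amino acids or carry tRNA. Xpot stood at 206 and 196 CPM in control granule and 90.6 and 76.0 in knockout granule libraries (log2 fold change -1.27, SE 0.27, edgeR adjusted p = 0.0302). Psat1, the phosphoserine aminotransferase, stood at 442 and 461 against 210 and 186 CPM (log2 fold change -1.19, SE 0.25, edgeR adjusted p = 0.0287). Asns stood at 119 and 125 against 67.2 and 61.8 CPM (log2 fold change -0.92, SE 0.23, edgeR adjusted p = 0.0459). Phgdh (-1.13), Slc7a5 (-0.95), Gars (-0.73) and Slc7a1 (-0.70) had negative values and no overlap but were not called. Pck2 went the other way within the synthesis group, at 59.6 and 61.8 against 109 and 116 CPM (log2 fold change 0.89, edgeR adjusted p = 0.27), and Ddit4 within the effectors, at 223 and 227 against 133 and 130 CPM (log2 fold change -0.77, edgeR adjusted p = 0.349).

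How many genes were called in this comparison depended on the libraries fitted. With the 4 granule libraries alone it was 23, 10 higher and 13 lower, with 57.3% of all genes called. It was 18 without knockout total replicate 1 (39.0% of all genes called) and 19 without replicate 2 (38.9%), libraries outside this comparison. It was 0 without any 1 of the granule libraries, where at most 0.433% of all genes were called. It was 2 without control total replicate 1 (4.13%) and 1 without control total replicate 2 (3.67%). Scaling by library size alone called 4, 3 higher and 1 lower (8.21%). DESeq2 called 9, 5 higher and 4 lower (17.8%). Over all alternatives run, the 6 fold changes kept their sign, with Ddit3 between 1.16 and 1.52 and Asns between -1.03 and -0.74 on the log2 scale. The mitochondrial share, given above, also separates the knockout from the control granule libraries, and its part in these values was not tested.

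**Figure D5:**
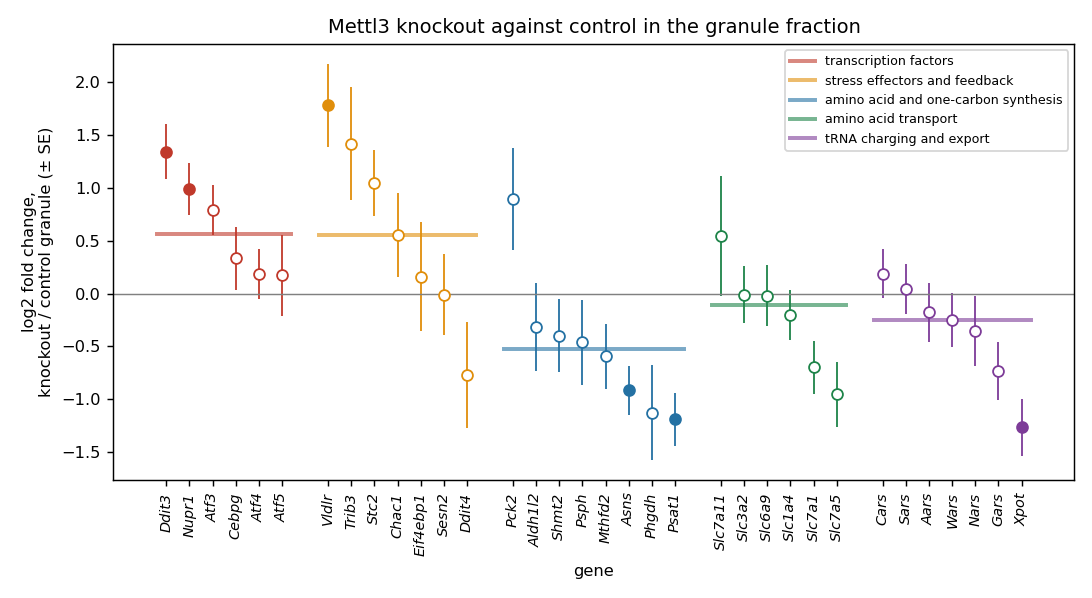
Points give the log2 fold change of knockout over control granule libraries (y axis, ± SE) for each gene (x axis) by subgroup; filled points were called, and horizontal lines are subgroup medians. The transcription factors and effectors have medians of 0.56 and 0.55, and the synthesis enzymes, transporters and tRNA genes of -0.53, -0.11 and -0.25.

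An interaction term then compared the granule to total ratio of knockout cells with that of control cells. By edgeR 0 of the 34 genes were called, against 0.517% of all genes, with 9 at an unadjusted p under 0.05 (3 positive and 6 negative), a share near the 25.8% of all genes. The DESeq2 Wald test called 8 (14.5% of all genes), with Trib3, Ddit3 and Atf3 positive and Aldh1l2, Psat1, Asns, Xpot and Slc7a1 negative. The largest interactions by edgeR were those of Trib3 at 2.16 (SE 0.76, adjusted p = 0.14), Aldh1l2 at -1.73 (SE 0.59, adjusted p = 0.135) and Pck2 at 1.57 (SE 0.68, adjusted p = 0.195). For Atf4 it was -0.02 (SE 0.34, edgeR adjusted p = 0.982). Subgroup medians were 0.85 for the effectors, 0.52 for the transcription factors, -0.17 for the transporters, -0.34 for the synthesis enzymes and -0.36 for the tRNA genes, against 0.09 over all genes. Their SDs over the 16 pairings of libraries were 0.344, 0.269, 0.198, 0.571 and 0.202 in the same order, so those of the transporters and synthesis enzymes exceeded the median. Without knockout total replicate 1, edgeR called 11: Trib3, Ddit3, Vldlr, Atf3 and Pck2 positive, and Xpot, Phgdh, Psat1, Slc7a1, Asns and Ddit4 negative, with 18.6% of all genes called. Without replicate 2 it called 16, with 46.4% of all genes called. Ddit4 then changed sign, from -0.86 without replicate 1 to 0.83 without replicate 2.

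Other genes of the pathway were listed in 3 sets from general knowledge. By edgeR 4.17% of all genes tested were called lower in control granules and 5.89% higher (median -0.06). In knockout granules it was 8.47% lower and 9.17% higher (median 0.04). Of 23 further genes linked to ATF4, 13 were called lower in control granules by edgeR and 0 higher (median log2 fold change -1.27). In knockout granules 15 of the 23 were called lower and 0 higher (median -1.62). The largest falls in control cells were those of Fgf21, a secreted hormone (-5.94, adjusted p = 0.0086, from 8.16 and 8.92 to 0.136 and 0.141 CPM), Slc7a3, a cationic amino acid importer (-3.67, adjusted p = 0.00491), Cth, a cysteine-producing enzyme (-3.53, adjusted p = 0.00877), and Gpt2, an alanine transaminase (-3.02, adjusted p = 0.00455). In knockout cells Cth (-4.48), Slc7a3 (-4.35) and Iars (-2.75), the isoleucyl-tRNA synthetase, fell most by edgeR. This ATF4-linked set holds 6 cytosolic tRNA synthetases, of which Yars, the tyrosyl-tRNA synthetase, was called lower in control cells (-1.25, edgeR adjusted p = 0.0407). Of the 8 further cytosolic synthetases, in neither set, 0 were called in control cells by edgeR or DESeq2 (median -0.09, 1 at an unadjusted p under 0.05, as were 30.0% of all genes), and 3 were called lower in knockout cells (median -0.93), namely Farsb, Rars and Kars.

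The 18 genes of eIF2, its kinases, its exchange factor and its phosphatase had a median of 0.25 in control and -0.31 in knockout cells between granule and total. In control cells edgeR called 1, against 10.1% of all genes. It was Ppp1r15a, the phosphatase subunit GADD34 that reverses eIF2 phosphorylation (log2 fold change -1.90, edgeR adjusted p = 0.0108). DESeq2 called 6 of the 18, with 21.5% of all genes called. These were Ppp1r15a, lower, and 5 that were higher: Dnajc3, Eif2s1, Eif2s2, Eif2s3x and Ppp1cb. In knockout cells Ppp1r15a (-1.08, edgeR adjusted p = 0.0322) and Eif2b1 (-1.08, edgeR adjusted p = 0.0261) were called lower, against 8.47% of all genes. DESeq2 called 6 of the 18 there, 1 higher and 5 lower, with 26.9% of all genes called. Between genotypes in the granule fraction, edgeR called Eif2ak2, the double-stranded RNA kinase PKR, higher in knockout cells (1.95, adjusted p = 0.0405, 61.3 and 61.7 against 219 and 257 CPM). It called Eif2s3x, an eIF2 subunit, lower (-1.92, adjusted p = 0.0126), together with Iars (-1.87, adjusted p = 0.0146), Farsb (-1.41, adjusted p = 0.045) and Mthfd1l (-1.07, adjusted p = 0.0338). Calls by edgeR there were 2 of 18 eIF2 genes, 2 of 23 ATF4-linked genes and 1 of 8 synthetases, against 9.45% of all genes. Medians between genotypes in granules were -0.387 for the eIF2 set (13 of 18 negative) and -0.185 for the ATF4-linked set (16 of 23 negative). For the synthetases the median was -0.732 (8 of 8 negative), below that of every subgroup of the 34 genes. Of all genes, 46.5% had negative values (median 0.08). In total RNA 0 genes of the 3 sets were called by edgeR between genotypes, against 0.412% of all genes. There, 5, 4 and 2 genes of the eIF2, ATF4-linked and synthetase sets had an unadjusted p under 0.05, and DESeq2 called 4, 4 and 1, where 24.8% of all genes had such a p and DESeq2 called 13.2%.

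The genes with the response element core in their promoter window were set beside those without it. Granule against total in control cells, the 11 genes with a match had a median log2 fold change of -2.22 (10 called by edgeR) and the 17 without one -1.48 (10 called). In knockout cells the medians were -2.11 (8 called) and -1.61 (13 called). The called share was thus higher with a match in control cells, but not in knockout cells. By edgeR 10.1% of all genes tested were called in control cells and 17.6% in knockout cells. Between genotypes in the granule fraction the medians were 0.56 and -0.02. These are descriptions with no test, and the 6 genes with no promoter entry are in neither set.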

How the data were processed

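Poly(A) RNA of 8 libraries (4 groups of 2) was sequenced. The labels do not say which replicates came from separate embryos or cultures, so p-values measure the spread between these libraries, which may be technical. The authors deposited raw counts per Ensembl gene, 1 column per library, not pooled. The submitters' processing notes name STAR, DESeq2 and the builds GRCm38 and mm10, with no role or version. Counting program, strand setting and annotation release are not given in the sources used here. Of 39017 identifiers, 37693 matched GENCODE M21 (GRCm38), which gave names, transcript lengths and GC content.

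Counts were analysed in R 4.3.3 with edgeR 4.0.16: quasi-likelihood F-test, robust, trimmed-mean-of-M-values scaling, filter by expression, 1 model with a mean per group over all 8 libraries (4 residual degrees of freedom). P-values were adjusted over the 18952 genes tested by the Benjamini-Hochberg method, and an adjusted p under 0.05 is a call. Standard errors come from the F statistic. CPM uses scaled library sizes. The fit was also run on counts simulated with no GC trend and no outlying library, so that run cannot speak to either feature of these data. Intervals cover counting error only. The members, subgroups and lists were chosen with earlier results of these data known. Genes given with values are, per comparison, the called members with the largest change (at most 8, otherwise the 3 largest), Atf4, and up to 4 called genes of the pathway lists; others are named for contrast after their values were seen. Alternatives were other scalings, DESeq2 1.42.0, other filters, fewer groups, a replicate block, removal of the GC trend of each library (lowess, span 0.3), and leaving out each library.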

Additional observations from a re-analysis of the deposited data

Results flagged for a closer look

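In 4 genes the knockout and control libraries were fully separated in opposite directions in the fractions, although edgeR's interaction test did not call them. Of all genes tested, 17.3% were separated in this way, against 11.8% of the 34. Atf3 was lower in knockout total (181 and 197 against 271 and 243 CPM) and higher in knockout granule libraries (207 and 170 against 112 and 106 CPM), with an interaction of 1.24 on the log2 scale (edgeR adjusted p = 0.104). Aldh1l2 (interaction -1.73, edgeR adjusted p = 0.135), Slc7a1 (-1.08, edgeR adjusted p = 0.126) and Nars (-1.09, edgeR adjusted p = 0.191) were higher in knockout total and lower in knockout granule libraries. Without knockout total replicate 1 the interaction was 1.16 for Atf3 and -0.90 for Slc7a1. Without replicate 2 it was 1.13 for Atf3, -1.42 for Slc7a1, -2.26 for Aldh1l2 and -1.65 for Nars.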

How the results depend on the processing

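Leaving out each library in turn, the genes called ranged from 0 to 33 of 34 (granule against total, control), 4 to 32 (knockout), 0 to 21 (knockout against control, total), 0 to 19 (granule) and 0 to 16 (interaction). The medians ranged from -1.69 to -1.53, -1.92 to -1.61, -0.14 to 0.041, -0.23 to 0.047 and -0.20 to 0.24. A group left with 1 library is assumed to vary like the others. In each comparison the share of all genes called also swung widely over these fits. The ranges of called genes are therefore not particular to the 34 genes.

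Removing the GC trend moved the medians to -1.55 (granule against total, control), 0.17 (genotypes, total), -0.24 (genotypes, granule) and -0.44 (interaction), with 12 genes called between genotypes in granules (24.0% of all genes) and 2 in the interaction (9.49%). Library size alone gave -1.81, no expression filter -1.62 and a mean of at least 5 CPM -1.81 for granule against total in control cells, and the last gave 0.16 for genotypes in granules. DESeq2 called 1 gene between genotypes in total RNA and 8 in the interaction (13.2% and 14.5% of all genes). Without a filter 2 and 5 were called (11.2% and 11.5% of all genes). Fitting only the groups compared called 0 genes (granule against total, knockout) and 23 (genotypes, granule), with 0% and 57.3% of all genes called.

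The numbers 1 and 2 are not said to mark a shared source, and deviations of same-numbered libraries correlated between groups at -0.602 to 0.19. With a replicate block 16, 21, 0, 0 and 0 genes were called in the order above (3.07%, 10.0%, 0%, 3.54% and 0% of all genes). With the block and the GC trend removed, the medians were -1.55, 0.16, -0.24 and -0.41, with 11 and 1 genes called (19.8% and 4.06%). Exchanging the numbers of the control total libraries (for control cells) or knockout total libraries (elsewhere), added after seeing the data, called 25, 24, 0 and 0 genes (the granule comparison between genotypes had none exchanged). Of all genes, 12.4%, 16.7%, 0.496% and 0.375% were then called. The Atf4 interaction of -0.02 changed sign to 0.17 (library size alone), 0.18 (mean of at least 5 CPM) and 0.037 (without knockout granule replicate 2). Library size alone shifted the interaction median of all genes by 0.19. Searching only bases before the start found the promoter core in 9 of the 28 members with an entry (32.1%), against 1056 of all 27025 genes (3.91%).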
